A study of Mus musculus with 4 samples.

Results

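The far end of the distal chromosome 7 region of the mouse genome, from 137850000 to 138655803 in build mm6, was examined for contact with the H19 imprinting control region (ICR) in embryonic stem (ES) cells and in embryoid bodies (EB). Its members were chosen by position alone, as the tiling probes of chromosome 7 within these bounds, and were 9957 of the 388160 tiling probes of the array. Contact was measured by circular chromosome conformation capture (4C), in which fragments ligated to a bait, here the H19 ICR, are amplified and hybridised. The ES group was the mouse line R1, undifferentiated, and the EB group was cells differentiated for 12 days into the aggregates called embryoid bodies. No genetic change or drug is named for either group. Each group had 2 arrays, and each array held a pool of 3 samples from this 1 cell line, with 4C product in Cy5 and genomic DNA of the same kind of cells, cut with Mbo1 (the input), in Cy3. The replicates are stated to be biological. The array tiles places that an earlier genome-wide 4C screen, which included pooled ES cells and embryoid bodies, had favoured, so its probes are not a random sample of the genome.

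The H19 ICR binds the insulator protein CTCF on the unmethylated maternal allele, which keeps distant enhancers from Igf2, and is methylated on the paternal allele, where Igf2 is expressed and H19 is silent. Distal mouse chromosome 7 carries a second imprinted domain beyond Igf2, controlled from within Kcnq1. A 4C signal marks fragments that were close enough to the bait to be joined to it, and depends on both nuclear proximity and the amplification of the circles. In RefSeq's order on the later assembly GRCm38, the genes beyond H19 towards the end of the chromosome include Igf2 (a fetal growth factor), Ascl2 (a transcription factor of the placenta), Kcnq1 (a potassium channel), Cdkn1c (an inhibitor of the cell cycle), Phlda2 (a restraint on placental growth), Osbpl5, Dhcr7 (the last enzyme of cholesterol synthesis), Shank2 (a scaffold of synapses), Cttn and Fgf3. Which of them lie in the stretch was not analysed here, since positions were not converted between builds.

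The probes were 50 bases long and started 52 bp apart at the median. Of the 805.804 kb of the stretch, 244 kb (30.3%) lay in 376 gaps of over 300 bp between probe starts, the longest of 7132 bp. Each gap includes the 50 bases of the probe that opens it, and nothing was measured in the rest of it. Among the members, 32 carried no region label, and at 6 positions 2 probes measured the same bases. The lower bound cut through tiled sequence of low signal. The last probe outside had 0.15 and 0.15 log2 units in ES, against -0.23 and -0.03 in EB, and the first probe inside had 0.22 and -0.10 in ES, against 0.0015 and -0.03 in EB.

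Signal is given as log2 of the 4C intensity, centred on the median of the tiling probes of each array. These medians ran from 543 to 1638 intensity units, close to the 534 to 1607 of the random control probes, so that most probes held no 4C signal above background. Positive probes were those 1 log2 unit (2-fold) or more above the median. A run was 3 or more of them in a row, each no further than 300 bp from the next. Of the random controls, 0.0838% to 1.01% were positive by array. The scanner's upper limit lay at 6.08 and 5.43 log2 units in ES replicates 1 and 2 and at 6.92 and 5.32 in EB. The file headers give both replicate 1 arrays 1 file date and software version and both replicate 2 arrays another, so values within a replicate number are also values within a file date. Precision is limited by the number of arrays.

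The far end held 4C signal in ES cells and almost none in embryoid bodies. In ES replicate 1, 197 probes (1.98%) lay in 21 runs, and in ES replicate 2, 281 probes (2.82%) lay in 30 runs. In EB replicate 1 there were 0 probes in runs, and in EB replicate 2 there were 3 (0.0301%), in 1 run. ES thus exceeded EB on every array, at 2.40% ± 0.597 against 0.0151% ± 0.0213 (SD, n = 2 each). The difference was -1.98 percentage points within replicate 1 and -2.79 within replicate 2. The two-sided exact permutation test gave p = 0.333, the smallest that 2 arrays against 2 allow. The separation depended on how the signal was read. With normexp background correction the shares were 3.14% and 5.37% in ES and 0.181% and 4.26% in EB, and with the log2 ratio of 4C to input they were 2.47% and 3.25% in ES and 2.56% and 0.0603% in EB, so that under each of these readings 1 EB array lay above ES replicate 1.

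**Figure D1:**
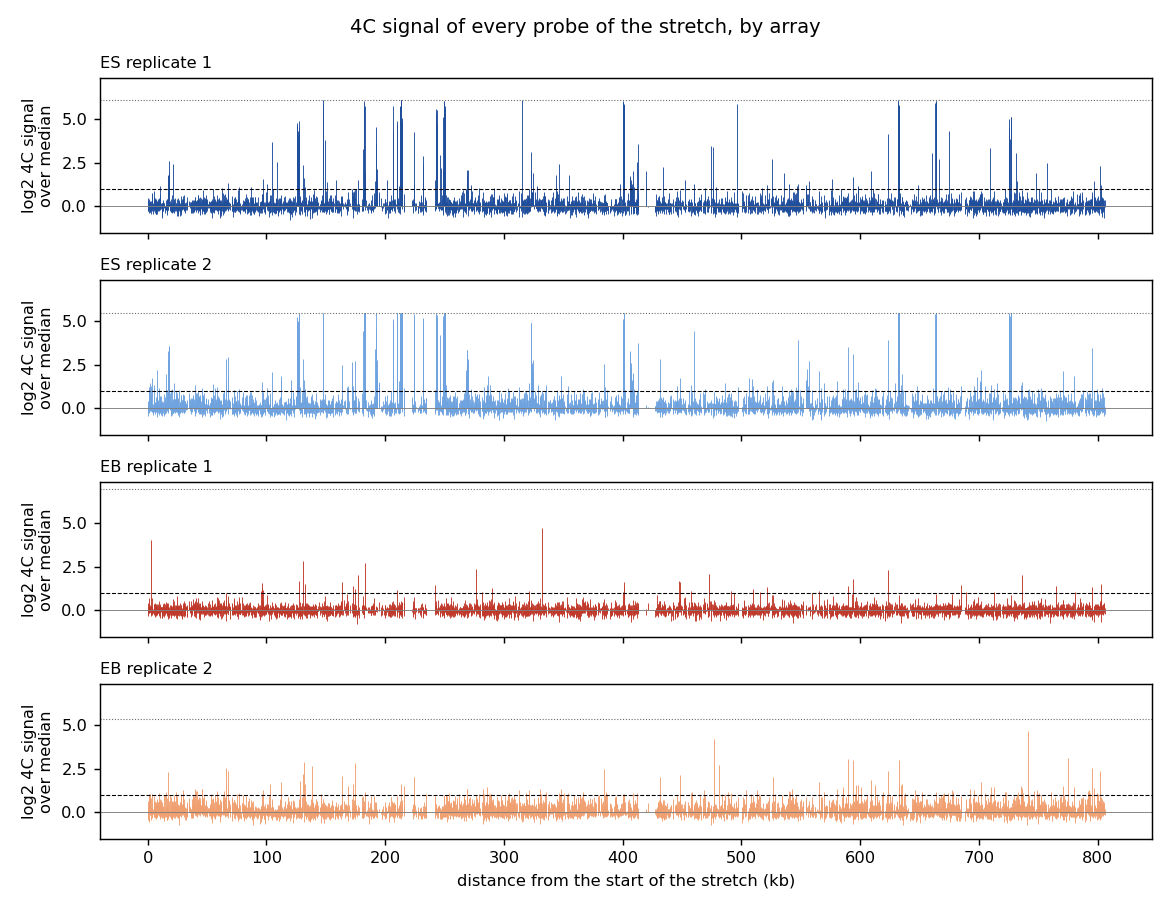
Log2 4C signal over the array median of all 9957 probes of the stretch against the distance from its start in kb, 1 panel per array. The dashed line marks 1 log2 unit and the dotted line the scanner's upper limit. Tall groups of neighbouring probes appear on both ES arrays at the same places, and the EB arrays hold single raised probes and 1 run of 3.

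Over fixed windows of 2 kb, which were not chosen by their values, 9 of the 385 windows of the far end were called lower in EB (2.34%), against 0.493% of the 15810 windows of the array. A call needed a limma adjusted p under 0.05 (Benjamini-Hochberg over all windows) and a difference of at least 1 log2 unit. No window of the far end was called higher in EB (0 of 385 by limma, with 1 at an unadjusted p under 0.05), against 0.101% of the array. By limma with no minimum difference, 18 windows were lower in EB and 0 higher, against 0.702% and 0.12% of the array. The median difference over the 385 windows was -0.0077 log2 units, close to -0.0036 for the array, so that the difference between the states sat in a few windows and not in the stretch as a whole. The highest value of any window in EB was 0.39 log2 units.

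The window from 138032000 had the lowest difference, with 3.69 and 4.09 log2 units in ES against 0.19 and 0.11 in EB (difference -3.74 ± 0.12 SE, adjusted p = 0.000102 by limma). The window from 138062000 followed with 3.25 and 3.78 in ES, against 0.01 and 0.13 in EB (difference -3.44 ± 0.16 SE, adjusted p = 0.000319 by limma). Its neighbour from 138064000 had a mean of 1.72 ± 0.304 (SD, n = 2) in ES and of 0.13 ± 0.160 in EB (adjusted p = 0.00686, limma). In these 3 windows every ES value lay above every EB value. That order by itself was common, at 17.9% of the far-end windows and 15.5% of those of the array.

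The window from 138098000 had 2.31 and 2.79 log2 units in ES, against -0.03 and 0.09 in EB (adjusted p = 0.000917, limma), and that from 138092000 had 1.24 and 1.29 in ES, against 0.02 and 0.10 in EB (adjusted p = 0.000241, limma). Nearer the start, the window from 137976000 had 2.10 and 2.97 in ES, against 0.05 and 0.09 in EB (adjusted p = 0.0118, limma). ES replicates differed more there than at the windows above, but remained apart from EB. Towards the end, the window from 138482000 had 1.69 and 1.82 in ES, against -0.0078 and 0.17 in EB (adjusted p = 0.000311, limma), and that from 138576000 had 1.43 and 2.04 in ES, against 0.04 and 0.01 in EB (adjusted p = 0.0136, limma). The window from 138250000 had 1.31 and 1.34 in ES, against 0.24 and 0.22 in EB (adjusted p = 0.000221, limma), with the smallest difference of the 9, -1.10. In the log2 ratio of 4C to input, the windows from 138064000, 138482000 and 138576000 were no longer called (adjusted p = 0.99997, 0.0655 and 0.280, limma). The difference itself moved little at 138482000 (-1.57) and 138576000 (-1.48), and came to -0.27 at 138064000. The window from 138064000 had input of 2.69 and 1.92 log2 units in ES, against 1.06 and 0.95 in EB. This was the lowest input difference of the far-end windows, -1.30, and its ratios overlapped between the groups. With the median of the probes in place of their mean, 2 of the 9 windows were called, those from 138032000 and 138062000. The windows from 138098000 and 137976000 kept differences past 1 log2 unit but missed the threshold (adjusted p = 0.0752 and 0.0849, limma), and the differences of the other 5 lay between -0.40 and 0.0035. The window from 138250000 was also not called with trend and robust eBayes (adjusted p = 0.0997, limma).

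Both EB arrays lay above both ES arrays in 5.19% of the far-end windows, against 11.8% of those of the array. None of these far-end windows was called. The 5 of them with the highest EB minus ES differences started at 138296000, 138638000, 138422000, 137934000 and 138528000. Their differences were 0.14, 0.13, 0.11, 0.10 and 0.09 log2 units (adjusted p = 0.99986 for each, limma), and the highest value of these 5 on any array was 0.19. No window of the stretch thus rose in embryoid bodies by the test.

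Along the stretch the ES signal was uneven. Of 17 bins of 50 kb, 9 held runs on both ES arrays, and none of these held a run on an EB array. Such bins were not counted over the rest of the array. A further 2 held runs on ES replicate 2 alone, and 6 held none in ES. The bin from 138050000 to 138099999 stood out, with 17.3% and 17.1% of its 387 probes in runs on the ES arrays and 0% on both EB arrays. The next highest were the bin before it, from 138000000, with 4.93% and 7.49% in ES, and the bin from 138250000, with 3.81% and 7.17%. The bin from 137950000 had 4.82% and 5.12%, and that from 138550000 had 2.80% and 3.30%. The share of probes in runs therefore did not fall steadily towards the end of the region. No run was found in ES from 138300000 to 138399999, and the bin from 138400000 held runs on ES replicate 2 alone (1.08%). From 138450000 to 138599999 each bin again held runs on both ES arrays. The only bin with runs in EB was that from 137900000, with 0.437% on EB replicate 2 and 0% on the other 3 arrays.

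**Figure D2:**
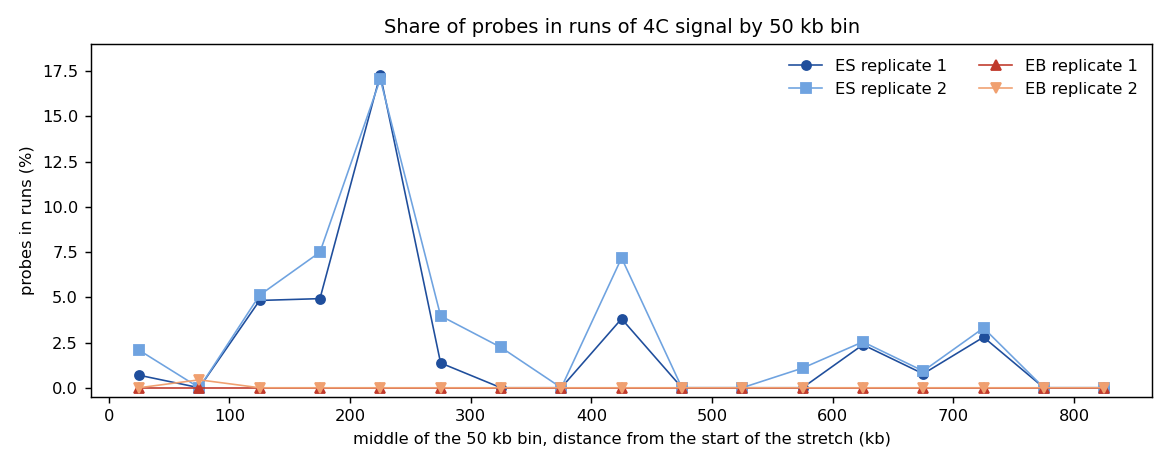
Percentage of probes in runs in each 50 kb bin (vertical axis) against the middle of the bin as distance from the start of the stretch in kb, with 1 line per array. Both ES lines peak at 17.3% and 17.1% in the fifth bin and return to 0 between 350 and 400 kb, while the EB lines leave 0 in 1 bin of EB replicate 2.

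Probes that were positive on 2 or more arrays, in either group, were joined into sites by the same rule as runs. This gave 22 sites with 195 probes, 1.96% of the members. All 22 held probes in runs on both ES arrays and on neither EB array. Because sites were joined from their values, they are described here without a test. They were short: 13 had 3 to 6 probes, 6 had 7 to 15 and 3 had more, and their lengths ran from 102 to 1498 bp with a median of 294 bp. Site 10, at 138081525, had 3 probes at only 2 positions, since 2 of them measured the same bases. The distance from one site to the next ran from 0.055 to 223 kb with a median of 11.5 kb. Sites within 2000 bp of each other made up 17 loci, 13 of them of 1 site.

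Site means ran from 1.27 to 5.85 log2 units on ES replicate 1 (median 4.03) and from 1.62 to 5.40 on ES replicate 2 (median 5.06). On the EB arrays they ran from -0.23 to 0.93 (median 0.06) and from -0.09 to 0.62 (median 0.14). In each of the 22 sites the groups did not overlap, with ES higher, and the EB means lay under the 2-fold level. This was largely set by the choice of sites, which were joined from high values and had runs on the ES arrays alone. Sites elsewhere on the array were not counted for comparison. With normexp background correction the EB means stayed under the 2-fold level in 19 of the 22. They reached 2.12 and 1.84 log2 units at site 16, and on EB replicate 2 they reached 1.18 at site 3 and 1.06 at site 18. With EB set at that level, ES was at least 1.42-fold to at least 24.0-fold higher, with a median of at least 11.7-fold. Close to the upper limit (within 2-fold) lay 28.7% of the site probes on ES replicate 1 and 76.9% on ES replicate 2, and 0% on both EB arrays, so the brightest sites cannot be ranked. ES replicate 2 had the higher mean in 20 of the 22 sites.

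**Figure D3:**
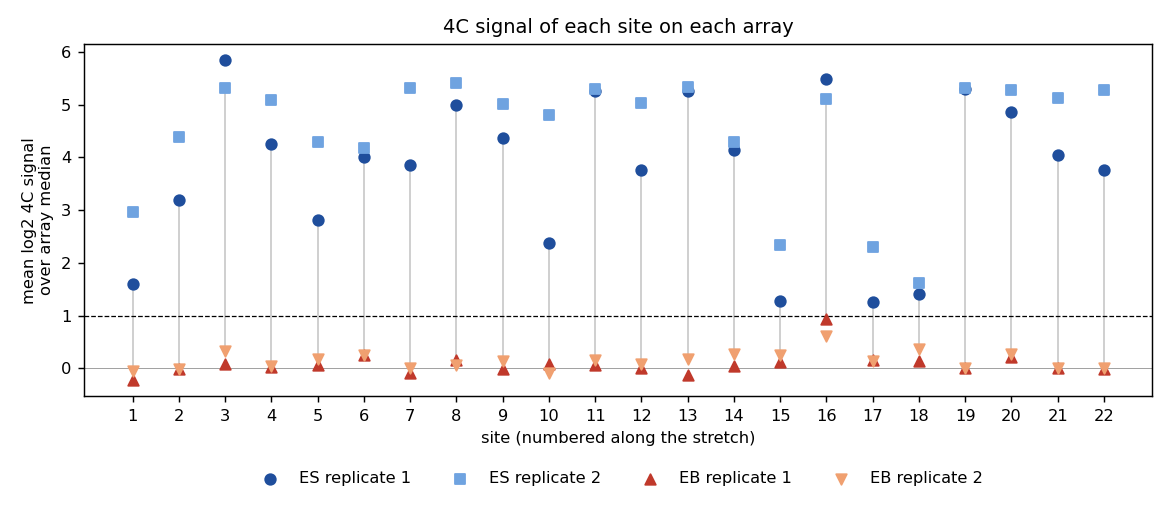
Mean log2 4C signal over the array median (vertical axis) of the 22 sites in their order along the stretch, with 1 symbol per array and the dashed line at 1 log2 unit. All ES symbols lie above the line and all EB symbols below it, and site 16 has the highest EB values, 0.93 and 0.62.

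Sites 1 to 3 lay apart near the start of the stretch. Site 1, from 137867396 to 137867653 (5 probes), was weak, at 1.60 and 2.96 log2 units in ES, against -0.23 and -0.04 in EB. Site 2, from 137975911 to 137977364, was the site with the most probes of the stretch, 28, and lay mostly in the called window from 137976000, with its first probes in the window before, which was not called (ES mean 1.47, adjusted p = 0.0595, limma). It had 3.19 and 4.39 in ES, against -0.01 and -0.0021 in EB, and all 28 probes were positive on both ES arrays and none on EB. Site 3, from 137997813, had 4 probes, all within 2-fold of the upper limit on both ES arrays, with means of 5.85 and 5.32 in ES, against 0.09 and 0.34 in EB.

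The densest group of sites followed, between 138031738 and 138119247. It held 12 of the 22 sites, numbers 4 to 15. Site 4, from 138031738 to 138032723 (19 probes), had 4.25 and 5.09 log2 units in ES, against 0.03 and 0.05 in EB. Site 9, from 138062853 to 138064350 (27 probes), had 4.36 and 5.02 in ES, against -0.0011 and 0.13 in EB. Site 8, of 4 probes, ended 0.055 kb before it with 4.99 and 5.40 in ES, against 0.15 and 0.07 in EB. Site 9 was at least 12.9-fold and site 8 at least 18.3-fold higher in ES. The single probe between them, at 138062801, had 0.58 on ES replicate 1 and 5.12 on ES replicate 2, so that replicate 2 had 1 unbroken block here and replicate 1 had a gap.

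Sites 12, 13 and 14 formed a block of 1402 bp from 138098958 to 138100359 that single probes divided. Site 12 (10 probes) had 3.76 and 5.04 log2 units in ES, against 0.02 and 0.08 in EB. Site 13 (6 probes) had 5.27 and 5.34 in ES, against -0.13 and 0.18 in EB. Site 14 (9 probes) had 4.14 and 4.30 in ES, against 0.05 and 0.27 in EB. The probe between sites 12 and 13 fell to 1.75 and 0.91 in ES, and that between sites 13 and 14 to 0.60 and 0.93. The first of these stayed positive on ES replicate 1, while the second lay under 1 log2 unit on both ES arrays. Site 7 (6 probes), from 138059790, had 3.85 and 5.32 in ES, against -0.09 and 0.01 in EB. The last site of the group, site 15 from 138119042 (4 probes), was weak, with 1.29 and 2.33 in ES, against 0.13 and 0.26 in EB.

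After 131 kb without a site, site 16 lay from 138250596 to 138251061, with 5.49 and 5.11 log2 units in ES, against 0.93 and 0.62 in EB. It was the site with the highest mean on both EB arrays, and its EB signal was spread over the whole site: all 9 probes lay between 0.57 and 1.63 on EB replicate 1 and between 0.21 and 1.05 on EB replicate 2. Of them, 4 were positive on EB replicate 1 and 1 on EB replicate 2, without 3 in a row. In intensity units the site had means of 46313 and 53215 in ES, against 1067 and 2547 in EB, against array medians of 543 and 1638 in EB. The EB signal was thus above each EB array's median at the same 9 probes that carried the ES signal, although its mean lay below the 2-fold level on both EB arrays. Sites 17 and 18, from 138256611 and 138258239, were weak, with ES means of 1.27 and 2.31 and of 1.40 and 1.62, and EB means of 0.15 and 0.14 and of 0.15 and 0.38. The other sites with any EB-positive probe, sites 9, 14, 15 and 18, had 1 each, all on EB replicate 2.

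The longest distance without a site, 223 kb, came next. Site 19, from 138481850 to 138482627 (15 probes), had 5.31 and 5.31 log2 units in ES, against 0.0066 and 0.0087 in EB. With EB at the 2-fold level this was a difference of at least 19.8-fold. Its ES replicates had the same mean to 2 decimals, though with 66.7% and 100% of its probes close to the upper limit (within 2-fold). Site 20, from 138513312 (5 probes), had 4.86 and 5.27 in ES, against 0.21 and 0.26 in EB. The last locus, from 138575405 to 138576974, held site 21 (7 probes) with 4.04 and 5.14 in ES, against 0.0061 and 0.0036 in EB, and site 22 (15 probes) with 3.77 and 5.27 in ES, against -0.01 and 0.0052 in EB. Of the 22 probes of this locus, 7 had no region label. Beyond it, the remaining members up to 138655737 held no run on any array.

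**Figure D4:**
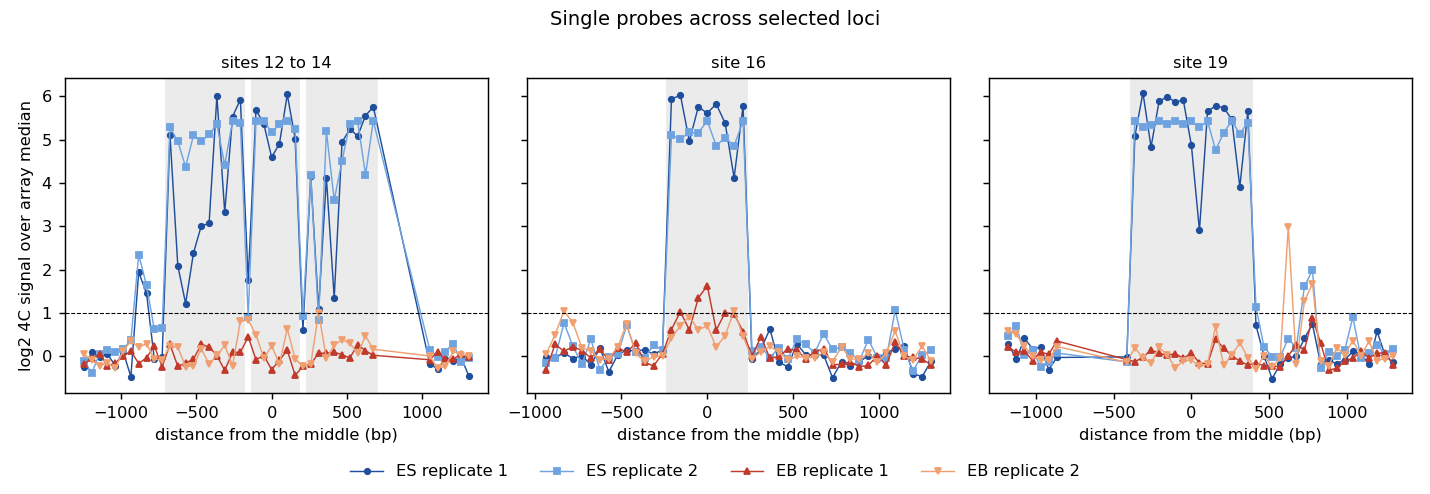
Log2 4C signal over the array median (vertical axis) of single probes around sites 12 to 14, site 16 and site 19, against the distance from the middle of each in bp, with 1 line per array, sites shaded and the dashed line at 1 log2 unit. ES signal rises and falls between neighbouring probes at the site borders, and at site 16 the EB lines rise over the same probes, to at most 1.63.

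By the median over sites, the borders were sharp on the ES arrays, but not at every site. Beside site 1, the probe before had 0.27 and 1.49 log2 units in ES and the probe after had 0.76 and 2.96. On ES replicate 2 the signal thus ran on past both ends of site 1. The outermost probe of a site had a median of 4.29 and 5.16 log2 units in ES over the 44 borders, and the first probe outside, where one lay within 300 bp (34 borders), had 0.54 and 0.80. The rule for sites sets part of this step, since a probe outside had to fall under 1 log2 unit on at least 3 arrays. The next 2 probes outside (28 borders) had 0.30 and 0.42 on ES replicate 1 and 0.69 and 0.34 on ES replicate 2. The EB medians at all these places lay between -0.06 and 0.12. Site probes were scattered over the slide, with 37, 53, 49 and 56 of them in its 4 equal parts, and no pair of site probes lay within 2 spots of each other in both directions.

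Embryoid bodies had positive single probes rather than runs. EB replicate 1 had 46 positive probes (0.462% of the members) and EB replicate 2 had 188 (1.89%), against 302 (3.03%) and 473 (4.75%) in ES. Over all tiling probes of the array, 0.574% and 1.52% were positive in EB and 1.54% and 2.10% in ES. The far end thus lay below the share of the array on EB replicate 1 and somewhat above it on EB replicate 2. Of the 216 probes positive on any EB array, 18 were positive on both. The brightest EB probes, at 4.70 log2 units on EB replicate 1 and 4.67 on EB replicate 2, lay in no run. Of the 188 positive probes of EB replicate 2, 83 were also positive on ES replicate 2, the array of the same file date, and 13 on ES replicate 1. Whether what the file date stands for had a part in these single probes was not tested. The 1 run of EB replicate 2, from 137917543 to 137917696 (3 probes), had a mean of 1.69 there, 0.54 on EB replicate 1, 0.61 on ES replicate 1 and 1.92 on ES replicate 2, so it too was higher on both replicate 2 arrays.

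The ES replicates shared most of their signal. Of the probes in runs, 193 were shared, 98.0% of those of ES replicate 1 and 68.7% of those of ES replicate 2. No probe in a run of an ES array lay in a run of an EB array. Replicate 1 had no run without a counterpart in replicate 2, while replicate 2 had 9 runs of its own, of 3 to 10 probes. These included 2 runs close together from 138173057 and 138173899, with 2.01 and 2.15 log2 units on ES replicate 2, 1.03 and 0.55 on ES replicate 1, and at most 0.08 on the EB arrays.

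The input channel, which holds genomic DNA that did not go through 4C, was the background measured in the same cells. By limma, 0 of the 385 windows of the far end were called different in input between ES and EB, with 2 at an unadjusted p under 0.05. Over the array, limma called 0 of 15810 windows in input, with 35 at an unadjusted p under 0.05. Input differences of the far-end windows ran from -1.30 to 0.34 log2 units, so the 0 calls do not show equal input. The sites differed more in input than the other members, with a median EB minus ES of -0.21 log2 units over site probes and -0.06 over the rest. The EB minus ES difference of the input ran from -2.23 to 0.44 log2 units over the 22 sites, with a median of -0.27, while that of the 4C channel ran from -5.37 to -1.25 with a median of -4.52. Input did not overlap between the groups in 8 of the sites, 7 with ES higher and 1 with ES lower. The same count was not made over the rest of the array, so these 8 sites have no background share beside them. ES replicate 1 had the highest input of the 4 arrays in 17 sites, a count that also has no background share. Over all members its median input was the highest too, at 0.23 log2 units. It was 0.19 on ES replicate 2 and 0.21 and 0.10 in EB. Among the sites with higher input in ES, the clearest were sites 20 and 21. Site 20 had input of 3.43 and 2.40 in ES, against 1.06 and 0.29 in EB. Site 21 had 2.42 and 0.58 in ES, against -0.08 and -0.36 in EB. The part of the input channel in the 4C difference was not tested. With the input divided out, each ES value stayed above each EB value in all 22 sites. EB minus ES there ran from -5.64 to -0.97, with a median of -3.82. The sites were joined from high 4C signal and had runs on the ES arrays alone, so this order was largely set by that choice. Of the fixed 2 kb windows of the far end, limma called 6 lower in EB by the ratio, against 9 by the 4C signal. By the ratio, the probes in runs made up 2.47% and 3.25% in ES and 2.56% and 0.0603% in EB.

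**Figure D5:**
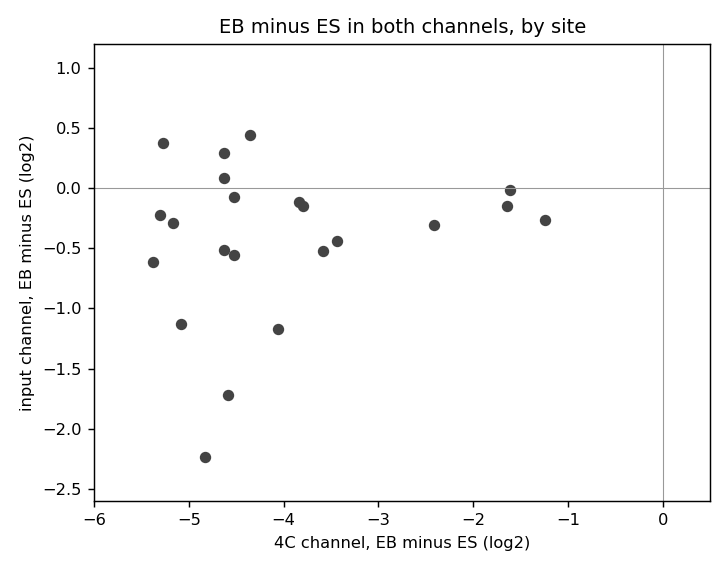
EB minus ES in the input channel (vertical axis) against EB minus ES in the 4C channel (horizontal axis), both in log2 units and as means of 2 arrays per group, with 1 point for each of the 22 sites. All points lie left of 0 in the 4C channel, between -5.37 and -1.25, and most lie below 0 in the input channel, down to -2.23.

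The far end carried the least ES signal of the distal region, but more than the rest of the array. The stretch of equal length just before it, from 137044196 to 137849999, held runs over 5.28% and 7.40% of its probes in ES, against 0.0983% and 0.265% in EB. The remainder of the distal region, from 136488552, had 20.5% and 26.2% in ES, against 3.99% and 3.98% in EB. The far end lay below both on each array. Chromosome 7 outside the distal region had 0.111% and 0.158% in ES, and the other chromosomes had 0.0470% and 0.0910%, both below the far end on each ES array. In EB the far end had 0% and 0.0301%, below the 0.0398% and 0.0502% of the other chromosomes. Chromosome 7 outside the distal region had 0.0149% and 0.0204% in EB, above the far end on replicate 1 and below it on replicate 2. By the window rule, 5.23% of the windows of the stretch before and 15.5% of those of the remainder were called lower in EB, against 2.34% in the far end. With 2 arrays per group no order of these shares can pass an exact test over arrays, and the differences between the stretches were not tested further.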

How the data were processed

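The authors deposited 1 intensity file per channel and array, with 1 raw intensity per spot on a linear scale, extracted with NimbleScan 2.3.78 (replicate 1) and 2.3.18 (replicate 2), per the file headers. Later steps by the authors are not stated in these sources. Here, log2 of the 635 nm intensity was centred on each array's tiling median, without background correction, loess or quantile normalization. The 1193 random control probes were left out and 6 repeated spots averaged.

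Means over fixed 2 kb windows with at least 5 probes were fitted with limma 3.58.1 (R 4.3.3; lmFit, eBayes) over 15810 windows on 4 arrays (two-sided tests, Benjamini-Hochberg). The fit was tested on simulated data. Runs, bins and sites were computed in Python 3.11.15. Named windows were those called, up to 10 per direction, filled to 5 with windows not called. Named bins were the 5 highest in ES and any with EB runs. Sites were named by probe number (the first 10, with ties) or EB signal, and others for their place in a locus or their input, after their values were seen. The members and rules were chosen with earlier results of these data known. Alternatives covered window, bin and run settings, normalization, input ratio, dim probes, a replicate block and leaving out each array. P-values set a difference against the spread between these arrays, and probes at the upper limit can make that spread too small. The windows from 138250000, 138092000 and 138482000 had ES SDs of 0.021, 0.037 and 0.093. They hold all or part of sites 16, 11 and 19, where 100% of the probes on ES replicate 2 lay within 2-fold of the limit. Genes, build mm6 sequence and probe sequences were not analysed here.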

Additional observations from a re-analysis of the deposited data

How the results depend on the processing

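Of the windows of the far end, 9 were called lower in EB at the main setting, and 0 were called higher under any alternative run. The count of lower windows was 21 with 1 kb windows (143 of 27714 on the array), 2 with 10 kb windows (20 of 3785), 2 with the median of the probes (36 of 15810), 17 with normexp background correction (159 of 15810) and 18 by adjusted p alone (111 of 15810), against 78 of 15810 at the main setting. Leaving out each array in turn gave 9 to 16, with 16 without ES replicate 1 (157 on the array). With the replicate block the count was 13, and 128 against 78 over the array. Replicate numbers share a file date in the headers but no label pairs them, and the deviations of same-numbered arrays correlated at 0.21 over the windows of the array and 0.13 over those of the far end. Over the alternatives, the 9 called windows gave 94 values with the same call, 13 in the same direction but not called, and 1 reversed: the window from 138092000 had 0.0035 log2 units with the median of the probes, where site 11 covers 4 of its 17 probes. The difference in the share of probes in runs, -2.39 percentage points, was -1.55 with the ratio to input and -2.39 with the replicate block, and -1.96 to -2.81 when each array was left out. The number of sites with signal in ES alone was 22, and 19 with normexp on the same probes. The share of bins with ES runs, 64.7% at 50 kb, was 42.4% at 25 kb. The cause of these changes was not tested. Saturation limits the ranking of bright sites and can narrow the spread between the ES replicates, and the 2 arrays per group limit all comparisons.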
